A study of Mus musculus with 12 samples.

Results

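The regions described here are peaks of 5-methylcytosine (m5C) in the RNA of very long genes of the mouse hippocampus. A peak was taken when it overlapped exactly 1 protein-coding gene span on that gene's strand and the span was longer than 200 kb. The rule gave 10428 of the 72319 peaks in 6 peak lists, and 70311 peaks lay in exactly 1 gene of any length. These 10428 peaks lay in 764 of the 990 protein-coding genes longer than 200 kb, which are 4.52% of the 21900 genes of the annotation. The remaining 226 long genes held no such peak in any list. The mice were female, wild-type and of the strain C57BL/6, and the groups differed in age: 3 months (young) or 18 months (labelled natural aging, called aged here). Each age had 3 immunoprecipitated (IP) hippocampus libraries with 3 input libraries, and each peak list belongs to 1 IP library and its input. Nothing in the labels ties the samples of an age to separate animals. A p-value over lists therefore measures only how these samples spread, and that spread may be technical. Hippocampal tissue holds neurons and glia together, so fewer cells of a type and less RNA per cell cannot be told apart.

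In RNA, m5C is a cytosine that carries a methyl group on its ring carbon, written by enzymes of the NSUN family and by DNMT2 and bound by the export adaptor ALYREF and by YBX1. Antibody capture of fragmented RNA shows stretches of a transcript that are enriched over the input, and it does not resolve the modified base. Genes with very long spans consist mostly of intron, and in neurons many of them encode synaptic adhesion molecules, ion channels and cytoskeletal linkers.

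The transcript start is the place in these genes where a peak can be set beside its sequence. A table of RefSeq starts (build GRCm38.p6, which is mm10) held 1116 starts for 744 of the 990 long genes. A member peak reached the first 50 transcribed bases of 37 of these starts, in 35 genes, in all 6 lists (3.32% of the long-gene starts, against 1.68% of all 21263 starts of the table), and of 169 starts in at least 1 list (15.1%, against 8.9%). The sequences below are those of the 6 genes with the most member peaks among the 35, together with the start of Tenm3, which lies 848134 bases inside its span, and the outermost listed starts of Phactr1 and Magi2 for comparison. Each sequence runs 5′ to 3′ on the gene's strand from 50 bases before the start, in lower case, to the first 30 transcribed bases, in capitals.
Macf1, chr4:123684331-123684410, minus strand, peak in 6 lists: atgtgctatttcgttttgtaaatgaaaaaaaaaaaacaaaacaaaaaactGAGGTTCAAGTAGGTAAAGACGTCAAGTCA
Iqgap2, chr13:95891893-95891972, minus strand, peak in 6 lists: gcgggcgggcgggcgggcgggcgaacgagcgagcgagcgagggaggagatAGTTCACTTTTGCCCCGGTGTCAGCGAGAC
Pakap, chr4:57434425-57434504, plus strand, peak in 6 lists: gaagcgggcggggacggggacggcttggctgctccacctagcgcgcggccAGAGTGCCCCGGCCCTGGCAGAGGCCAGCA
Tanc1, chr2:59611992-59612071, plus strand, peak in 6 lists: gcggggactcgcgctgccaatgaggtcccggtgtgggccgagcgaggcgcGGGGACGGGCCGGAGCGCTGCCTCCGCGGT
Phactr1, inner start, chr13:43122789-43122868, plus strand, peak in 6 lists: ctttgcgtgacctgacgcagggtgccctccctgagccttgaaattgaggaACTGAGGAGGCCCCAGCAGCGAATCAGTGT
Phactr1, outermost start, chr13:42680749-42680828, plus strand, peak in 0 lists: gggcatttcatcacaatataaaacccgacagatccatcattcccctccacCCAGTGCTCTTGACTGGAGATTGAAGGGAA
Magi2, inner start, chr5:19907468-19907547, plus strand, peak in 6 lists: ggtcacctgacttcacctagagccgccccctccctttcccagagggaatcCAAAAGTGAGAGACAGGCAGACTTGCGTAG
Magi2, outermost start, chr5:19226996-19227075, plus strand, peak in 3 lists: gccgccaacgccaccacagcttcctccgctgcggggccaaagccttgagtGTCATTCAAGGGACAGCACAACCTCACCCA
Tenm3, inner start, chr8:48674661-48674740, minus strand, peak in 6 lists: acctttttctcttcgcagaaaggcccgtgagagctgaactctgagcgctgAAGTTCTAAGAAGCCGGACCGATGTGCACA

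These starts differ in composition, from an A-rich stretch before the Macf1 start to the GC-rich stretches of Iqgap2, Pakap and Tanc1. In Phactr1, whose protein binds actin and protein phosphatase 1, the peak lay at a start 442465 bases inside the span in all 6 lists, and the start 425 bases from the edge of the span had none. In Magi2, a synaptic scaffold, the start 688131 bases inside the span had a peak in all 6 lists and the outermost start in 1 young and 2 aged lists. Of the 499 listed starts more than 1000 bases inside a long span, 10 had a peak in all 6 lists and 69 in at least 1. Both shares were below those of all 1116 long-gene starts (3.32% and 15.1%). The order seen in Phactr1 and Magi2 was not general. In Tanc1, Slc4a10 and Cntn1 the outermost listed start had a peak in all 6 lists, and the inner listed starts had none. The 5′ edge of the peak fell exactly on a listed start in 348 of the 530 member peaks over such a window (65.7%). The first 50 transcribed bases of the 37 starts with a peak in all 6 lists were 66.0% G and C, against 60.1% over all 21263 starts of the table. This was not particular to long genes, since the 320 starts of other genes with a peak in all 6 lists had 67.8%. All long-gene starts had 61.7%. Macrod2 and Pcdh9 each entered the 37 with a pair of overlapping windows. Letters matching CNGGG, which surround cytosines written by NSUN2, occurred on the transcribed strand in 14 of the 37 windows (37.8%) and in 34.4% of all windows. On either strand, which adds letters that the transcript does not carry, CNGGG occurred in 24 of 37 (64.9%) and in 51.4% of all. Among the 320 it was 55.3%. Letters matching CTCCA, known from sites of NSUN6, occurred on the transcribed strand in 0 of 37 and in 7.16% of all windows, and on either strand in 4 of 37 (10.8%) and 17.7%. Among the 320 starts of other genes these shares were 2.81% and 13.4%. A match to 1 motif can overlap a match to the other, and these shares are descriptions of the letters only.

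The number of member peaks was higher in each aged list than in each young list. The young lists held 1408, 1137 and 1448 and the aged lists 2302, 2000 and 2133. Young list 2, the shortest of the 6 lists, was also the lowest here. The means were 1331 ± 169 and 2145 ± 151 (SD, n = 3 lists each), a ratio of 1.61 (two-sided exact permutation test over lists, p = 0.1, the smallest that 3 against 3 lists allow). Whole lists differed in the same way: 8549 to 10392 peaks in the young and 14008 to 15189 in the aged. Read counts were not among the files used here, so the depth is unknown, and age and the length of a list cannot be told apart. After every list had been cut to its 8549 peaks of highest score, aged lists held 67 more member peaks on average than the young (exact p = 0.1).

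The share of single-gene peaks that lay in long genes was 14.7%, 13.8% and 14.4% in the young lists and 15.5%, 14.6% and 15.3% in the aged. The groups overlapped, since aged list 2 lay below young list 1 (means 14.3% ± 0.465 and 15.2% ± 0.462, SD, n = 3 each, exact permutation p = 0.2). Long genes with at least 1 peak numbered 533, 501 and 518 in the young lists and 640, 591 and 603 in the aged, with no overlap (exact permutation p = 0.1). At equal list length the order turned, with 36 fewer long genes in the aged lists on average (exact p = 0.1). Marker genes of neurons had a peak in 8 of 10 cases in each young list and in 9 to 10 in the aged, those of astrocytes in 7 to 10 and 10 to 11 of 11, and those of the oligodendrocyte lineage in 3 to 6 and 6 to 7 of 12. Microglial markers had a peak in 1 of 8 genes in each young list and 1 to 2 in the aged, with none in any list for Csf1r, P2ry12, Tmem119, C1qa and Inpp5d among others. Markers of endothelium and mural cells had one in 4 of 7 genes per young and 5 per aged list, and those of choroid plexus and ependyma in 0 to 2 and 0 to 1 of 6. The part of cell composition in these results was not tested.

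**Figure D1:**
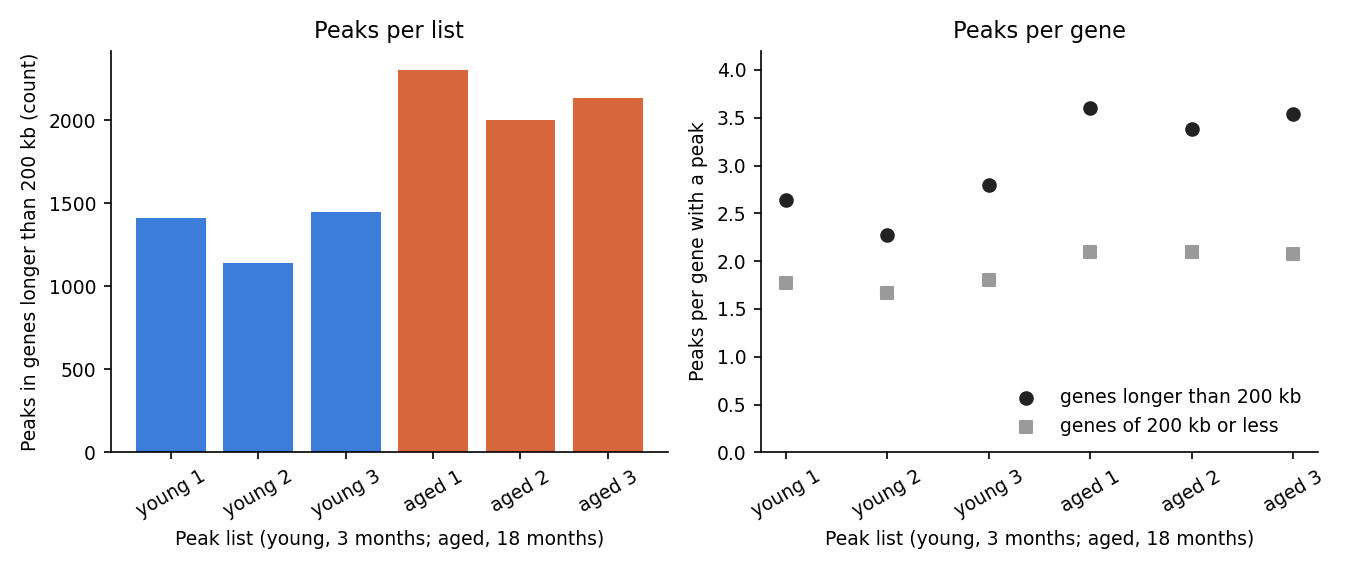
Left, the count of peaks in genes longer than 200 kb in each of the 6 peak lists (blue, young; orange, aged); right, the peaks per gene with a peak in that list, for genes longer than 200 kb (black circles) and shorter ones (grey squares). The aged lists hold 2000 to 2302 such peaks and the young lists 1137 to 1448, and in each list the black circle lies above the grey square.

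Long genes carried several peaks where they carried any. The young lists held 2.64, 2.27 and 2.80 peaks per long gene with a peak, and the aged lists 3.60, 3.38 and 3.54, without overlap (means 2.57 ± 0.270 and 3.51 ± 0.110, SD, n = 3 each, exact permutation p = 0.1). At equal list length the difference was 0.345 in place of 0.937 (exact p = 0.1). In genes of 200 kb or less the means were 1.75 ± 0.0732 and 2.09 ± 0.0109. Over the 6 lists, long genes held 1.12 ± 0.356 (SD) more peaks per gene than the others, with the same direction in 6 of 6 lists (two-sided exact sign-flip permutation test, p = 0.031, the smallest that 6 lists allow). That difference was 0.701 with scores of 100 or more and 0.787 at equal list length, with the same p. The number went up with the span below 200 kb too, and genes of 100 to 200 kb held 2.45 ± 0.189 in young and 3.18 ± 0.00183 in aged lists, close to 2.45 ± 0.248 and 3.30 ± 0.105 at 200 to 300 kb (SD, n = 3 each). The ratio of peaks per long gene to peaks per other gene was 1.49, 1.36 and 1.55 in the young lists and 1.71, 1.62 and 1.70 in the aged, again without overlap (exact permutation p = 0.1). With lists of equal length the aged minus young difference in this ratio was 0.0399 in place of 0.211 (exact p = 0.3). In lists of full length, the 374 long genes with a peak in every list carried 3.07 ± 0.379 peaks per young and 4.71 ± 0.252 per aged list (SD, n = 3 each), 1.53 times as many. The 2581 other such genes went from 2.22 ± 0.165 to 2.98 ± 0.0483, 1.34 times as many. These genes were not compared at equal list length. In aged lists 31.7% to 33.8% of the long genes with a peak had only 1, and in young lists 39.4% to 51.9%.

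The chance of having a peak in a list also went with the span. A peak was present in 50.6% to 64.6% of long genes and in 20.4% to 28.5% of other genes per list (mean difference 32.4 percentage points ± 2.44 SD, 6 of 6 lists, exact sign-flip permutation p = 0.031). Over all lists, 21.6% of genes of 10 kb or less had a peak, 68.2% of those of 100 to 200 kb, 73.4% of those of 200 to 300 kb and 84.7% of the 59 genes over 1000 kb. Peaks per gene were highest in the class of 500 to 1000 kb, with 2.75 ± 0.334 in young and 4.03 ± 0.178 in aged lists (SD, n = 3 each), and lower in the class over 1000 kb, with 2.25 ± 0.149 and 3.12 ± 0.0140. Per length the order is the opposite: the median gene with a peak held 10.7 peaks per 100 kb and list in the class of 10 kb or less and 0.869 in the class of 100 to 200 kb. Long-gene peaks were narrower, with a median width of 191 to 201 bases per list against 219 to 231 in other genes (mean difference −30.2 ± 1.51 bases, SD, 6 of 6 lists, exact sign-flip permutation p = 0.031). This width was not particular to spans over 200 kb: the median was 509 bases in genes of 10 kb or less and 229 at 10 to 50 kb, but 198 at 50 to 100 kb and 192 at 100 to 200 kb, beside 183 to 213 in the 4 longer classes. The median score of long-gene peaks, the authors' value per peak, was 0.938 times that of other genes over the 6 lists, and lower in 6 of 6 (exact sign-flip permutation p = 0.031). With a threshold of 300 kb the log2 ratio of the scores was −0.05 and no longer passed the test (p = 0.15625, exact).

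**Figure D2:**
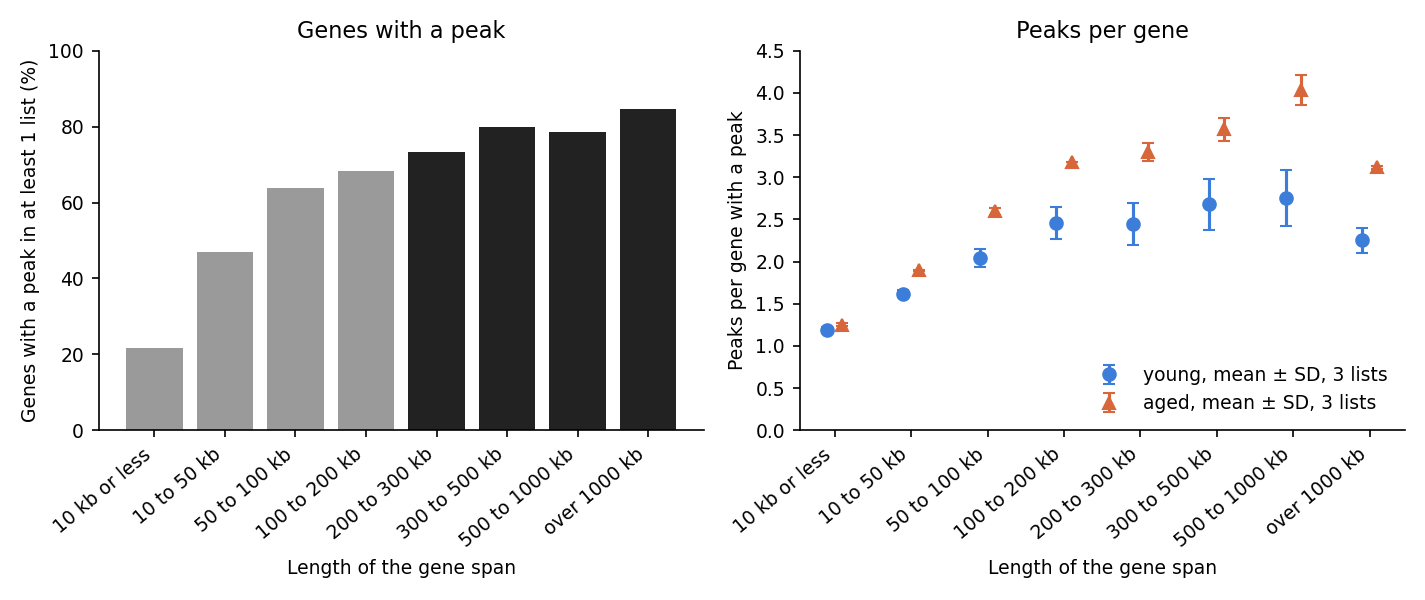
Left, the share of genes with a peak in at least 1 list, by length of the gene span (grey, 200 kb or less; black, longer); right, peaks per gene with a peak in the young and aged lists (mean and SD over 3 lists each). Peaks per gene reach 4.03 in aged lists in the class of 500 to 1000 kb and are lower, at 3.12, above 1000 kb.

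Peaks crowded toward the 3′ side of long spans. The last 5% of the span held 22.8% to 26.2% of member peaks per list, and the first 5% held 7.80% to 8.65%. Between them the share stayed low after the start, at 1.18% in the bin from 5 to 10% of the span and 1.01% in the next, and then increased toward the end. In genes of 2 to 200 kb the last 5% held 12.6% and the first 5% held 9.96% on average, so that long genes had 11.5 percentage points (± 1.06 SD) more of their peaks in the last 5% and 1.87 (± 0.583 SD) fewer in the first (6 of 6 lists for each, exact sign-flip permutation p = 0.031). The smaller share in the first 5% was not particular to spans over 200 kb. It was 13.3% in genes of 10 kb or less but 6.76% at 100 to 200 kb, below the 7.43% to 9.37% of the longer classes. The last 5% held 14.2% at 100 to 200 kb and 21.8% at 200 to 300 kb. The first 50% of the span held 25.4% of peaks in long genes and 36.3% in others. Since 5% of a long span is at least 10 kb, shares were also taken within a fixed distance, where long genes had less at both ends: 5.01% of member peaks had their midpoint in the first 1000 bases and 2.64% in the last 1000, against 10.1% and 9.84% in the other genes (6 of 6 lists for each, exact sign-flip permutation p = 0.031). These lower shares were not particular to spans over 200 kb. The first and last 1000 bases held 4.87% and 3.36% at 100 to 200 kb, beside 4.99% and 3.05% at 200 to 300 kb. In genes of 10 kb or less they held 22.9% and 31.4%. The median member peak lay 71.6 to 81.6 kb from the end of its span and 233 to 247 kb from its start.

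Shares within a fixed distance of the ends overlapped between the ages. The first 1000 bases held 4.55%, 5.28% and 4.77% of member peaks in the young lists and 5.17%, 5.40% and 4.92% in the aged, with overlap (exact permutation p = 0.3), and at equal list length the aged mean was 1.12 percentage points higher (exact p = 0.1). In the last 1000 bases the shares were 2.91%, 2.46% and 2.83% and then 2.35%, 2.85% and 2.44%, also overlapping (exact permutation p = 0.3). More than 10 kb from both ends lay 74.1% ± 1.44 of the peaks in the young and 74.9% ± 0.221 in the aged lists (SD, n = 3 each, exact permutation p = 0.4). The share over the first 50 bases of a listed start was 5.87%, 6.58% and 5.67% in the young lists and 6.83%, 7.06% and 6.59% in the aged, which did not overlap (exact permutation p = 0.1). The aged mean was 0.787 percentage points higher, and 1.53 at equal list length (exact p = 0.1). Young list 2 and aged list 3 were nearly equal. The exact permutation p was 0.2 with peaks over several spans included and without peaks over nested spans. It was also 0.2 when any 1 aged list was left out. Counted as starts, 66, 61 and 66 had a peak in the young lists and 126, 116 and 113 in the aged, where whole lists were also longer. A higher share near the start in aged lists was not particular to long genes. The first 5% of the span held 7.84% in young and 8.34% in aged lists in long genes (means). In genes of 2 to 200 kb it held 9.23% and 10.7%. The 8 starts with a peak in the 3 aged lists only belonged to Adarb2, Amph, Ccdc85a, Dock9, Ephb1, Fut8, Gabrb1 and Kcnj6, which include an ephrin receptor (Ephb1), a GABA receptor subunit (Gabrb1) and a potassium channel (Kcnj6), and no start had one in the 3 young lists only. These 8 are 0.717% of the long-gene starts, near the 0.668% of all starts that were aged-only, and 0.0423% of all starts were young-only.

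**Figure D3:**
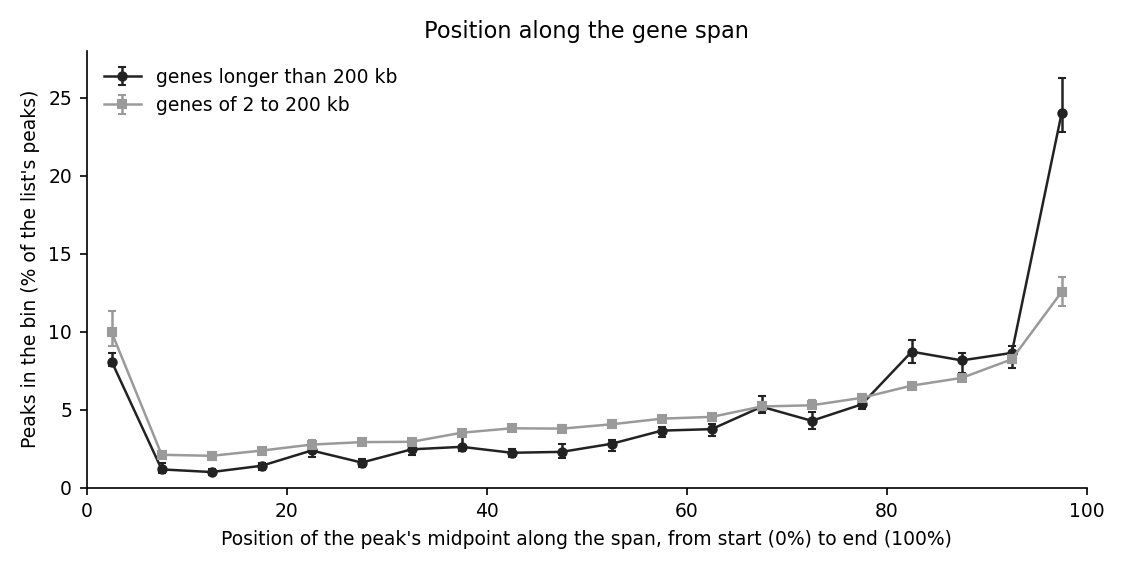
Share of each list's peaks in 20 equal bins of the gene span, from its start to its end, for genes longer than 200 kb (black circles) and genes of 2 to 200 kb (grey squares); points are means over the 6 lists and bars run from the lowest to the highest list. In long genes the last bin holds 24% of the peaks and the second bin 1.18%.

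The genes with the most peaks were led by cytoskeletal linkers and calcium release channels. Dst (dystonin, a linker of microtubules, actin and intermediate filaments, 400775 bases on chromosome 1) held 29, 19 and 28 peaks in the young lists and 33, 33 and 36 in the aged. Syne1 (nesprin-1, which ties the nuclear envelope to actin) held 22, 13 and 25, then 35, 30 and 28. Macf1, a microtubule and actin crosslinker, held 20, 16 and 20, then 32, 22 and 32. In all 3 genes each aged list lay above each young list, and young list 2 was the lowest. Ryr2, a calcium release channel of the endoplasmic reticulum, held 22, 19 and 21, then 31, 27 and 35. Itpr1, the receptor for inositol trisphosphate on the same membrane, held 20, 10 and 17, then 26, 21 and 22. Both channels were again higher in each aged list. At equal list length the difference of Ryr2, aged minus young, was −0.667 peaks (exact p = 0.6), and Syne1 had equal means.

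Kalrn, a guanine nucleotide exchange factor of dendritic spines, held 12, 10 and 14 peaks in the young lists and 25, 20 and 26 in the aged. At equal list length it kept 3.00 more peaks per aged list (exact p = 0.1). Mycbp2, a ubiquitin ligase of axons, held 13, 12 and 12, then 20, 14 and 18. Unc80, a subunit of the sodium leak channel complex, held 9, 7 and 11, then 17, 13 and 15. These 3 genes also had no overlap between the ages. The presynaptic scaffold genes Ppfia2 (liprin-alpha-2) and Erc2 (an active zone protein) held 12, 11, 14, 19, 16 and 15 peaks and 11, 11, 11, 13, 12 and 14 in the same order of lists. The difference in Erc2 was 2.00 peaks per list, the smallest of the 10 genes. For each of the 10 the exact permutation p was 0.1, and together they held 11.2% of all member peaks. At equal list length the difference of each was smaller, from −0.667 peaks in Ryr2 to 5 in Dst. Seen over all long genes with a peak, every aged list had more peaks than every young list in 152 of 764 (19.9%; over genes of any length with a peak, 11.9%), and the opposite held in 3 (0.393%; 0.958%). Long genes also held more peaks per gene than others. These shares were not taken by span class below 200 kb or at equal list length.

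**Figure D4:**
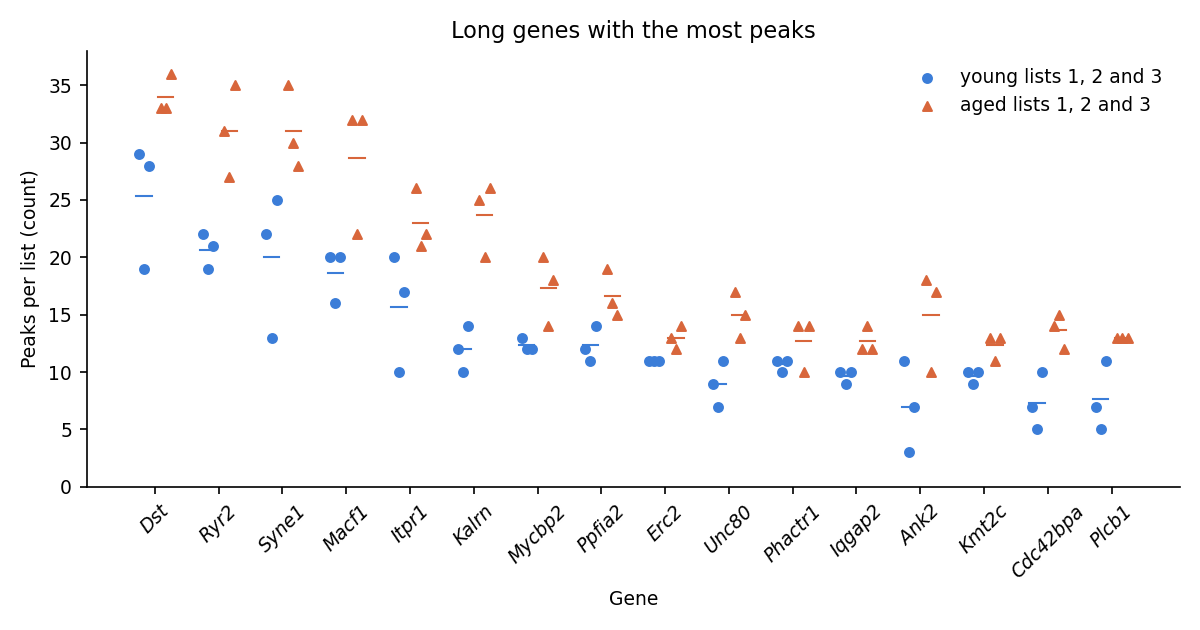
Peaks per list in the 16 long genes with the highest mean number of peaks (blue circles, the 3 young lists; orange triangles, the 3 aged lists; lines, means). Dst reaches 36 peaks in an aged list, and the groups overlap in Phactr1 and Ank2.

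The place of the peaks within the span differed between these genes. In Dst the median peak lay at 79.1% of the span, in Ppfia2 at 83.1% and in Ryr2 at 80.9%. In Mycbp2 the median lay at 30.2%, and its 8 regions with a peak in all lists included one of 76 bases at 9.91% of the span (chr14:103323670-103323745) with scores of 1558.01, 914.65 and 952.75 in the young and 2654.57, 2355.63 and 2432.6 in the aged lists. In Plcb1 (phospholipase C beta 1) the median lay at 84.0%, and in Erc1, a paralog of Erc2, at 34.9%. Exon positions were not used here, so these places are not tied to exons or introns.

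For their length, the longest spans held few peaks: the median gene with a peak had 0.101 per 100 kb and list in the class over 1000 kb and 0.535 in the class of 200 to 300 kb. Dmd (dystrophin, 2390387 bases on the X chromosome) held 3, 5 and 5 peaks in the young and 12, 10 and 10 in the aged lists, and its median peak lay at 45.6% of the span. Its regions with a peak in all 6 lists were 2, at 1072 and 1108 kb from the start, and the first of them scored 251.76, 127.97 and 171.76 in the young and 674.6, 704.88 and 704.25 in the aged lists. Between them lay its 2 regions with a peak in the aged lists only. Ptprd, a receptor phosphatase that organizes synapses, held 3, 1 and 4, then 4, 6 and 4 peaks. Cntnap2, an axonal adhesion molecule, held 0, 2 and 0, then 4, 1 and 1, and none of its regions was in all lists. Lsamp, a membrane adhesion molecule, held 3, 3 and 4, then 5, 4 and 6. Its first region lay at 0.295 kb from the start of the span and its last, 7535 bases wide, reached the end, and both were in all 6 lists.

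Lrp1b, a lipoprotein receptor, held 6, 1 and 2, then 9, 9 and 12 peaks, without overlap, in 15 regions of which none was in all lists. Macrod2, a hydrolase of ADP-ribose, had 3, 3 and 3, then 4, 3 and 4 peaks, all within 5.62 kb of the start of its 1997664 bases or at 99.9% of the span. Dlg2, the postsynaptic scaffold PSD-93, had 2, 2 and 2, then 4, 5 and 4. Csmd1, a large complement-control protein, had 1 peak in each list, always in the same region of 698 bases (chr8:17214756-17215453, minus strand, as taken from these peaks) at 19.5% of the span, and its score was 3100 in each. That value was the most frequent score near the top of every list, held by 283 to 707 peaks per list, so scores there do not rank peaks. Long spans without a member peak included those of Il1rapl1 (1375012 bases, a synaptic receptor), Naaladl2, Cntn5 and Agbl4. Naaladl2 had no strand from the start table and none from peaks, so no peak was given to it. A strand from peaks is lacking where no usable peak lies in the span or the strands tie.

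**Figure D5:**
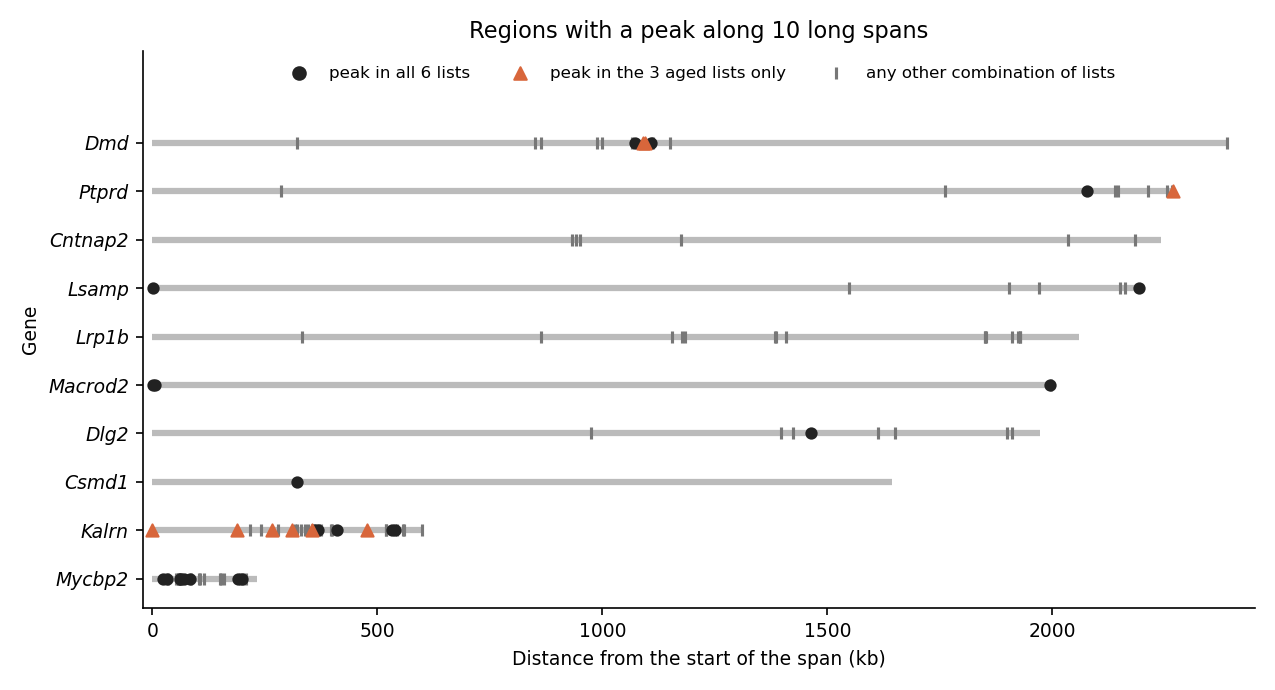
Regions with a member peak along the 8 longest spans with a peak and along Kalrn and Mycbp2, by distance in kb from the start of the span (grey bars show the span; black circles, peak in all 6 lists; orange triangles, peak in the 3 aged lists only; ticks, any other combination). Macrod2 has peaks at its ends only, and Csmd1 has 1 region, about 320 kb from its start.

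Presence by list was counted over genes and over regions, where a region is the union of overlapping or touching peaks of a gene. Of the 764 long genes, 374 (49.0%) had a peak in all 6 lists, against 31.8% of all 9289 genes with a peak, and 101 (13.2%) in 1 list only, against 22.6%. The share in all 6 lists went up with the span below 200 kb too. It was 21.4% in genes of 10 kb or less and 43.5% at 100 to 200 kb, beside 48.1% at 200 to 300 kb. There were 18 long genes with a peak in the 3 aged lists and in no young list (2.36%, against 4.19% of all genes). The opposite held for 2 genes (0.262%, against 0.818%). Of the 3472 regions in long genes, 619 (17.8%) were present in all lists, against 17.6% of all 23861 regions, and 1150 (33.1%) in 1 list, against 34.8%. Aged-only regions numbered 172 (4.95%, against 5.17%) and young-only regions 13 (0.374%, against 0.62%). Region shares in long genes thus lay near those of all genes. At equal list length, 2 long genes were aged-only and 9 were young-only, and 27 regions were found on each side.

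Of the 172 aged-only regions, 132 (76.7%) lay in long genes with a peak in all 6 lists. That share is near the base, since those genes held 74.7% of all regions in long genes and 82.1% of the member peaks of the aged lists. The 172 were spread over 134 genes, 29 of which had 2 or more. Their median score, averaged over the lists that hold a region, was 105, against 389 for the 619 regions in all lists and 66.2 for regions in 1 list. Their median position was 72.4% of the span, against 77.0% for regions in all lists. Where each of the 6 lists had 1 peak in a region, the start and end were identical in all 6 in 77.3% of 590 regions in long genes and in 71.1% of 3451 in other genes.

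Kalrn held 6 aged-only regions, the most of any long gene. The one with the highest score (chr16:34219310-34220274, minus strand, 965 bases, 353 kb from the start) scored 1976.8, 347.6 and 1430.57 in the aged lists. A region of 183 bases in the same part of the span, 368 kb from the start, was present in all 6 lists, with scores of 3100, 416.89 and 1687.78 in the young and 3100 in each aged list. The aged-only region of Kalrn nearest the start (chr16:34573107-34573532) lay over the very edge of the span, with scores of 68.65, 113.44 and 67.12. Other high-scoring aged-only regions lay in Dst (chr1:34169750-34169928, scores 1014.77, 500.61 and 747.97), in Gria1, an AMPA receptor subunit (chr11:57189653-57189837, 629.86, 126.72 and 396.58), and in App, which encodes the amyloid precursor protein (chr16:85030232-85030365, 279.44, 295.26 and 496.99).

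The highest-scoring aged-only region in a long gene lay in Aopep, which encodes aminopeptidase O. It spans chr13:63300338-63301850 on the plus strand (1513 bases, 93.1% along the span), with scores of 2150.98, 1918.11 and 1795.58 in the aged lists and no peak in the young lists. Under it, on the same strand, lie 3 microRNA hairpins of the RefSeq table. Of the 66 hairpins in long spans on their strand, no other had a member peak. They are shown because they are the part of this region with a sequence at hand, 5′ to 3′, with the mature arms listed in the table in capitals.
Mir23b, chr13:63300484-63300557: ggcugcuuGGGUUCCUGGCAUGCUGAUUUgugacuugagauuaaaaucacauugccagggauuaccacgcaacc
Mir27b, chr13:63300712-63300784: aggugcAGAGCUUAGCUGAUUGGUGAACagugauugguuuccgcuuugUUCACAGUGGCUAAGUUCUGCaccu
Mir24-1, chr13:63301208-63301275: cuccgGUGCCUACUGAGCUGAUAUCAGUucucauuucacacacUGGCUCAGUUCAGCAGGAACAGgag
Aged lists 1 and 2 covered each hairpin whole, and in aged list 3, where the region was split into a pair of peaks, 29 of 74, 73 of 73 and 25 of 68 bases were covered. A primary microRNA transcript and the Aopep transcript on this strand cannot be told apart in these lists. The only other peaks of Aopep were at chr13:63061041-63061210, in young lists 1 and 2, with scores of 79.1 and 71.28.

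The young-only region with the highest score lay in Cdc42bpa, a kinase that acts on the actomyosin cytoskeleton. It is 106 bases wide (chr1:180106047-180106152, plus strand) and scored 1206.95, 1125.75 and 1089.08 in the young lists, with no peak in any aged list. Cdc42bpa as a whole went the other way, with 7, 5 and 10 peaks in the young and 14, 15 and 12 in the aged lists. In its region at chr1:180101025-180101272 all 6 lists had a peak with the same ends, with scores of 2505.34, 958.7 and 716.14 in the young and 3100, 3096.69 and 3100 in the aged lists. The next young-only region by score was in Nrcam, a neuronal adhesion molecule, with 231.61, 128.02 and 213.42, and the other 11 had mean scores of 63.9 to 132.

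The 18 aged-only long genes had low scores and few peaks. Phlpp1, a phosphatase that acts on AKT, had the most, with 4, 2 and 2 peaks and best scores of 242.32, 87.54 and 312.49 in the aged lists. Edil3, an extracellular matrix protein, followed with 3, 2 and 2, and Pcsk2, a prohormone convertase, with 2, 2 and 2. Opcml, an adhesion molecule in the same family as Lsamp, had 2, 1 and 2, and the endocytic adaptor Sh3kbp1, the adhesion molecule Dscaml1 and the S6 kinase Rps6ka2 had 2, 2 and 1 each. The other 11 had 1 peak in each aged list: Csmd3, Myo16 (a myosin), Glis3 and Zmat4 (zinc-finger proteins), Dach1 (a transcriptional cofactor), Stk3 (a kinase of the Hippo pathway), Uvrag (autophagy), Phkb (a phosphorylase kinase subunit), Kcnd3 (a potassium channel), Chchd6 (mitochondrial cristae) and Dennd1b (a Rab exchange factor). Stk3 had the highest best scores of these 11 in aged lists 2 and 3, with 279.29 and 242.84. The peaks of such a gene were not always at the same place. In Csmd3 each lay in a region of its own, 0.663, 631 and 781 kb from the start. No region of Dach1, Kcnd3, Dennd1b, Edil3 or Dscaml1 had a peak in all 3 aged lists. In Chchd6 and in Glis3 the 3 peaks shared 1 region. The 2 young-only genes were Cfap54, a protein of cilia, with 1 peak per young list and best scores of 87.94, 79.78 and 78.11, and Epb41l4a, a membrane skeleton protein, with 1, 2 and 1 peaks. The strand of both came from their peaks, and with strands from the start table alone no young-only long gene was counted.

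In lists of genes by function, each list had more peaks at 18 than at 3 months. The aged peak lists were longer as a whole, and the functional lists were not compared at equal list length. Over all long genes, 77.2% had a peak, and of those with a peak 49.0% had one in all lists and 19.9% had more in every aged than every young list. The last share ran from 12.5% in axon guidance and 17.1% in synaptic adhesion to 45.8% in cytoskeletal genes and linkers, and these differences were not tested. Of 38 long genes for synaptic adhesion, 35 had a peak, 21 in all lists, and 6 had more peaks in every aged than every young list; their peaks summed to 64.3 ± 6.66 per young and 107 ± 5.51 per aged list (SD, n = 3 each, as for all sums that follow). The adhesion gene Tenm2 (a teneurin) held 7, 7 and 4, then 6, 10 and 9 peaks, with overlap, and Ncam2 (a neural cell adhesion molecule) held 4, 4 and 3, then 7, 8 and 8, without. Of 21 receptors for glutamate and GABA, 20 had a peak, 10 in all lists and 6 without overlap in the aged direction, with sums of 32.7 ± 6.03 and 61.7 ± 9.29. Gria1 held 7, 3 and 6, then 11, 8 and 13, and the NMDA receptor subunit Grin2a 4, 3 and 4, then 7, 8 and 8. Both of these receptor genes lay higher in each aged list. Synaptic scaffolds and release machinery had a peak in 25 of 26 genes, 17 in all lists, with 10 without overlap and sums of 71.0 ± 8.54 and 113 ± 7.

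Of 33 ion channels, 30 had a peak, 19 in all lists and 9 without overlap, with sums of 83.7 ± 15.5 and 138 ± 11.5. Dpp6, an auxiliary subunit of potassium channels, held 3, 1 and 4, then 9, 7 and 10. Cytoskeletal genes and linkers had a peak in 24 of 24, 20 in all lists and 11 without overlap, with sums of 134 ± 22.9 and 205 ± 21.3. The counts of 24 and 20 include Lpp, whose only region overlaps the pseudogene Morf4l1-ps1 in all 6 lists. Ank2, an ankyrin, held 11, 3 and 7, then 18, 10 and 17, which overlapped. Of 49 kinases, phosphodiesterases and signalling genes, 44 had a peak, 29 in all lists and 15 without overlap, with sums of 89.0 ± 13.5 and 167 ± 15.1. Trio, a paralog of Kalrn, held 6, 6 and 6, then 10, 8 and 10. The ratio of sums was highest in the receptors, at 1.89, and in the signalling genes, at 1.88, against 1.61 for all long genes; these differences between lists were not tested.

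Transcription and chromatin factors had a peak in 34 of 35 long genes, 21 in all lists and 7 without overlap, with sums of 65.7 ± 12.6 and 108 ± 7.09. Kmt2c, a histone methyltransferase, held 10, 9 and 10, then 13, 11 and 13. RNA-binding proteins had one in 9 of 10, 7 in all lists and 4 without overlap, with sums of 20.7 ± 3.21 and 34.3 ± 3.51, and the splicing factor Rbfox3 held 5, 6 and 6, then 8, 7 and 8. Cadherins and protocadherins had a peak in 13 of 15 and sums of 18.7 ± 3.79 and 30.7 ± 4.04. Axon guidance genes had one in 16 of 18, and sums of 25 ± 3.00 and 39.7 ± 5.13. Robo2, a guidance receptor, held 5, 5 and 7, then 6, 6 and 5 peaks. Fragile site and other giant genes had a peak in 16 of 22, the lowest share of these lists, and sums of 21.3 ± 7.37 and 39.3 ± 4.73. For each of the 11 lists the sums did not overlap, with an exact permutation p of 0.1. Among long marker genes, those of astrocytes (5 of 5 with a peak) summed to 12 ± 4.00 and 22.0 ± 3.46, those of neurons (3 of 3) to 16 ± 2.65 and 22.0 ± 1.00, and those of the oligodendrocyte lineage (3 of 4) to 1.67 ± 0.577 and 2.67 ± 0.577.

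Some members cannot be given to a gene with certainty. The strand of 194 long genes came from the majority of their own peaks, and these genes held 21.9% of member peaks; 52 long genes had no strand. Among 7252 genes with a strand from both sources, 99.7% were equal. Over a noncoding or pseudogene span without a strand in the start table lay 206 member peaks, among them 24 of Dst and 6 of Itpr1. The only region of Lpp, a LIM domain protein, is of this kind: it overlaps the processed copy Morf4l1-ps1 in all 6 lists. In Pde4d, a phosphodiesterase, 6 peaks overlap Rps3a3, and in Zfp993, which belongs to a zinc-finger family with many near-identical copies, 24 peaks overlap a pseudogene. Zfp993 is the third gene in which each young list (5, 5 and 5 peaks) exceeded each aged list (4, 3 and 2), and its call is uncertain for that reason.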

How the data were processed

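The authors deposited 6 peak lists, 1 per IP library; the files carry a position, a strand, a peak name with the word MACS and a score per peak. Tools named in the submitters' processing notes are HISAT2 2.0.4 and cutadapt 1.9.3, with the build mm10. Settings of the peak caller and the scale of the score were not given in the sources used. The deposited score starts at 50 and served only to describe, order or filter the peaks of a list. A spreadsheet named in the labels was not analysed here. The long genes, gene lists and questions were chosen with earlier results of these data known.

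Peaks were given to GRCm38.p6 (mm10) RefSeq gene spans by an overlap of at least 1 base on the gene's strand. The strand came from a RefSeq start table or, failing that, from the majority of the gene's peaks outside noncoding genes of known strand. Positions count from 1. Shares at the ends of other genes used spans of at least 2000 bases. Ages were compared by two-sided exact permutation over 3 against 3 lists, and long with other genes by an exact sign-flip test over 6 lists, with no adjustment across measures. A call needed p under 0.05, which the former test cannot reach. The scripts were tested on simulated data. Named are the 10 genes with most peaks per list, the 8 longest with a peak and the longest without, all genes present at 1 age only, and examples from each list; other genes and regions (Cdc42bpa, Aopep, App, Nrcam, Lpp, Pde4d, Zfp993, Plcb1, Erc1, and the genes with start peaks) were named after their values were seen. Predicted genes were counted, not named. Python 3.11.15, pandas 2.3.3, numpy 2.4.6, scipy 1.17.1 and matplotlib 3.10.9 were used. Score and length thresholds, list length, left-out lists, overlap rules and the pairing by replicate number were varied. A few items are not reported here.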

Additional observations from a re-analysis of the deposited data

Results flagged for a closer look

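Peaks outside the main counts were seen on the strand opposite to a long gene and in Kcnq1ot1. On the opposite strand of a single long gene lay 36 peaks, in 16 genes, with 2, 4 and 6 in the young lists and 8 in each aged list. The lncRNA Kcnq1ot1, an imprinted antisense transcript (chr7:143213111-143296547, minus strand), lies inside the span of the potassium channel gene Kcnq1. It held 59 peaks, with 8, 8 and 9 in the young lists and 14, 10 and 10 in the aged, covering 16763 to 22352 bases per list, and no peak in the Kcnq1 span lay on the other strand. The start table gives no strand for Kcnq1, and peaks inside a noncoding gene of their own strand did not count toward a strand. Kcnq1 thus had no strand, and these 59 peaks were not counted as members.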

How the results depend on the processing

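Of 31 results under 15 alternatives, 5 values turned their direction. With lists of equal length, these were the long genes with a peak (a difference of −36.0 genes, aged minus young), the share in the last 1000 bases (0.0446 percentage points), the share more than 10 kb from both ends (−0.38) and the peaks of Ryr2 (−0.667). With scores of 100 or more it was the share in the last 1000 bases (0.0116).

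Counts of genes and regions at 1 age moved most. Aged-only long genes numbered 30 with scores of 100 or more, 2 at equal length, 9 at 300 kb and 24 to 37 without 1 list. Young-only long genes numbered 0, 9, 1 and 2 to 6 under the same settings, and 0 with strands from the start table. Aged-only regions numbered 27 at equal length, 105 at 300 kb and 224 to 341 without 1 list. Young-only regions numbered 4, 27, 7 and 18 to 29, and 8 with strands from the start table. Leaving out a list makes these rules easier to meet.

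With 5 lists the sign-flip test cannot go below 0.0625, so the comparisons of long with other genes passed it under no left-out list, while their values lay at 1.04 to 1.22 peaks per gene (0.701 with scores of 100 or more and 0.787 at equal length), −5.17 to −4.86 and −7.34 to −7.11 percentage points for the first and last 1000 bases, 31.7 to 33.0 points for genes with a peak, −30.6 to −29.7 bases of width, a log2 score ratio of −0.107 to −0.0864, and 11.2 to 11.7 points for the last 5%. At 300 kb the log2 score ratio was −0.0453 (exact p = 0.15625). Without young replicate 2, the shortest list, member peaks differed by 717 per list and peaks per long gene by 0.788. With the replicate block, pairing lists by number, the exact p for member peaks was 0.25, the smallest for 3 pairs, so neither this fit nor the one without the block could pass the threshold for an age difference. The 2 alternatives on strands and nested spans, and the results for the first and last 5%, listed starts, the ratio of peaks per gene and single genes, were chosen after seeing the data. Depth is unknown, and no interval that needs it is given.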
